A study of Mus musculus with 9 samples.

Results

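Complement is a cascade of blood and tissue proteins whose cleavage of C3 and C5 releases small peptides, the anaphylatoxins, and leaves larger fragments on nearby surfaces. The genes described here encode the cell-surface proteins that read these products and the proteins that restrain or sustain the cascade. They are the anaphylatoxin receptors C3ar1, C5ar1 and C5ar2, the integrin subunits Itgam, Itgax and Itgb2, the membrane regulators Cd55 and Cd59a, and properdin, Cfp. They were taken by gene symbol, which found all 9 among 55385 genes, each once, and they are described in 9 libraries of mouse brain.

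Total RNA of the ischemic hemisphere was depleted of ribosomal RNA and sequenced in 3 libraries for each of 3 groups. All mice were male C57BL/6 animals of 8 to 10 weeks. Celastrol mice had 90 min of transient middle cerebral artery occlusion (tMCAO, a filament model of ischemic stroke) and 4.5 mg/kg celastrol, a plant triterpenoid, given intraperitoneally as reperfusion started, tMCAO mice had the occlusion without the drug, and sham mice had the operation with no occlusion. No vehicle injection is named for the tMCAO or sham mice, so drug and injection cannot be told apart. The labels say neither how long after reperfusion the brains were sampled nor whether a library is 1 animal or a pool, so the p-values below measure only the spread between these libraries.

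In the brain, C3ar1 and C5ar1 are known from microglia, the resident macrophages, and from blood-borne myeloid cells, and C5ar1 is abundant on neutrophils. Itgam (CD11b) and Itgax (CD11c) each pair with Itgb2 (CD18) to form complement receptors CR3 and CR4, which bind C3 fragments on opsonised surfaces and carry adhesion of leukocytes. Cd55 speeds the decay of the convertases that cleave C3 and C5, Cd59a blocks assembly of the membrane attack pore, and properdin stabilises the alternative pathway convertase.

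Libraries held 60392960 to 75158625 estimated counts. Markers of the labelled tissue were high in every library: 8 neuronal genes summed to 5842 to 8824 CPM in celastrol, 5999 to 6915 CPM in tMCAO and 6864 to 8084 CPM in sham libraries (CPM, read counts scaled for library size). On the first principal component of all tested genes (31% of the variance), celastrol replicate 2 lay at 23.2, on the side of the sham libraries (25.8 to 58.7) and apart from the other 2 celastrol (-44.1 and -20.3) and the 3 tMCAO libraries (-58.1 to -17). Choroid plexus markers (6 genes) summed to 1797, 7.40 and 445 CPM in celastrol, 272, 496 and 18.2 CPM in tMCAO and 40.4, 10.1 and 48.4 CPM in sham libraries, and their part in the results was not tested.

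Occlusion separated these genes into those that stood well above sham and those that did not. C5ar1 and C3ar1 were the farthest above sham, Itgb2 and Cd59a were about 2-fold above it, and Itgam, Cd55 and Cfp lay close to it. Of the 7 genes that passed the filter on low values, every tMCAO library was above every sham library for 4, C3ar1, C5ar1, Itgb2 and Cd59a, and the same held for 12.4% of the 16982 genes tested. It also held for Itgax, which did not pass the filter. None of the 9 genes passed edgeR's quasi-likelihood test at an adjusted p under 0.05 (Benjamini-Hochberg over all genes tested) for tMCAO against sham, where 0% of all genes were called higher and 0 were called lower. The same 4 genes had an unadjusted edgeR p under 0.05 and were higher, against 8.56% of all genes. DESeq2 called 3 of them higher (C3ar1, C5ar1 and Itgb2), against 3.28% of all genes, and called none of the 9 lower. Over the 7 tested genes the median log2 fold change was 0.91, beside 0.01 over all genes tested. C3ar1 and C5ar1 passed that filter only through the occluded libraries, which bears on this median and these counts, and C5ar2, like Itgax, did not pass it.

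**Figure D1:**
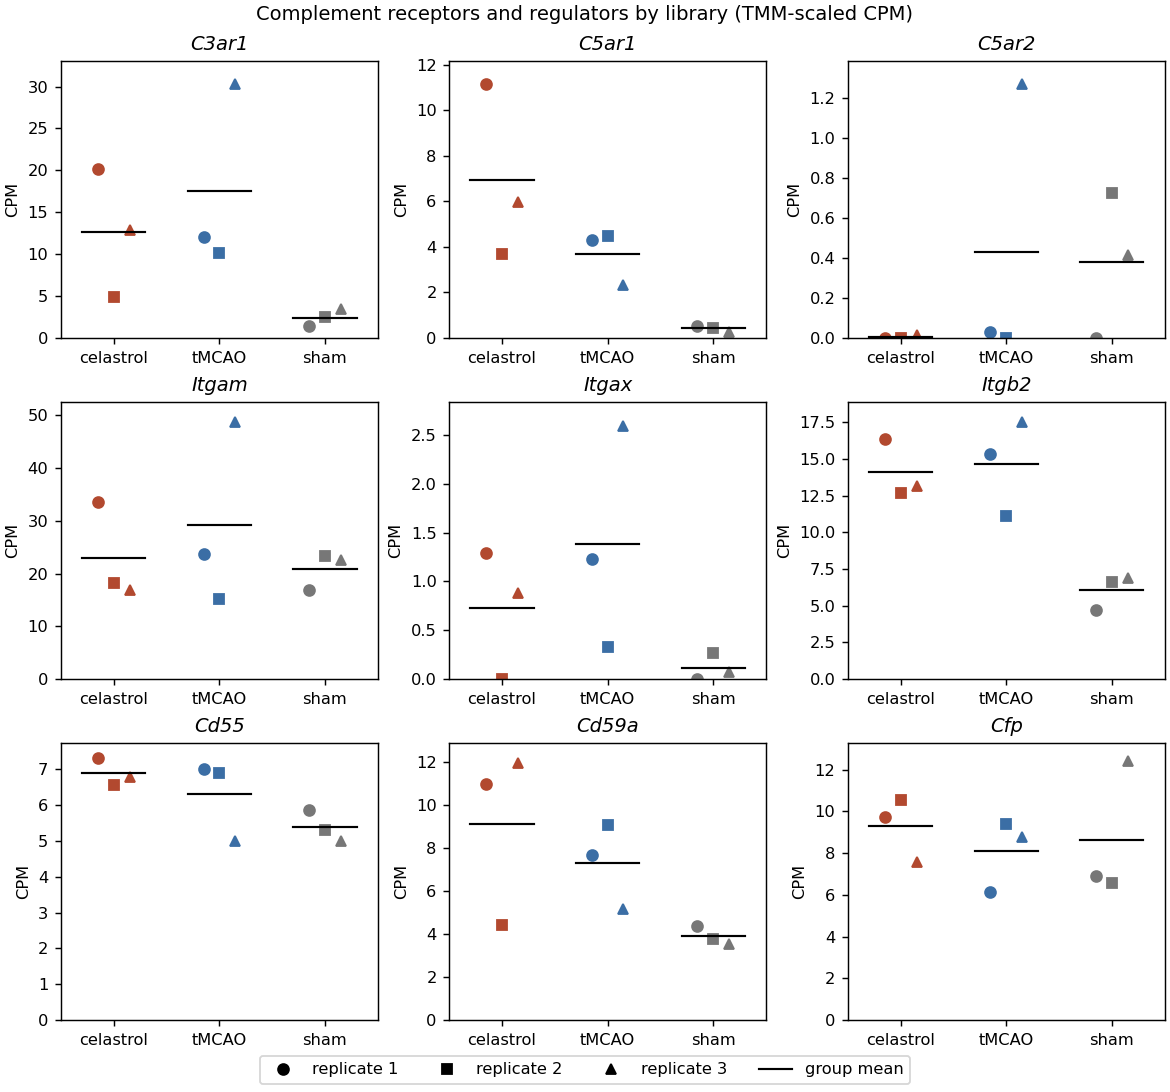
Level of each gene in every library, in TMM-scaled CPM on linear axes from 0, with celastrol, tMCAO and sham from left to right, 1 symbol per replicate and a line at the mean of 3 libraries. C3ar1, C5ar1, Itgb2 and Cd59a lay above all sham libraries in all 6 occluded libraries, while C5ar2 and Itgax were near 0 in most libraries.

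C5ar1 encodes the main signalling receptor for C5a, a strong attractant of neutrophils. It had 11.2, 3.69 and 5.97 CPM in celastrol libraries, 4.30, 4.48 and 2.34 CPM in tMCAO libraries, and 0.544, 0.422 and 0.277 CPM in sham libraries. All 6 occluded libraries were above all 3 sham libraries, and the lowest occluded library was tMCAO replicate 3. The group means were 6.94 ± 3.83 CPM in celastrol, 3.71 ± 1.19 CPM in tMCAO and 0.414 ± 0.134 CPM in sham (SD, n = 3 each). In tMCAO against sham the log2 fold change was 3.15 ± 0.49 (SE; 95% interval 2.03 to 4.27), which ranked 24 among 16982 genes by p and had an edgeR adjusted p of 0.0907. With all 6 occluded libraries against sham it was 3.6 ± 0.48, a 12.1-fold difference, with an edgeR adjusted p of 0.0656. These values did not pass the threshold of 0.05 in edgeR, while DESeq2 gave adjusted p = 1.03e-07 for tMCAO against sham and 2.13e-13 for all occluded against sham. Over 20 other settings, the adjusted p for tMCAO against sham ran between 1.03e-07 and 0.368. Without celastrol replicate 2, edgeR's adjusted p for C5ar1 was 0.0334 in tMCAO against sham.

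C3ar1 encodes the receptor for C3a. It had 20.1, 4.91 and 12.9 CPM in celastrol libraries, 12.1, 10.1 and 30.3 CPM in tMCAO libraries, and 1.37, 2.52 and 3.41 CPM in sham libraries. The occluded libraries again all lay above sham, with celastrol replicate 2 lowest and tMCAO replicate 3 highest, so the 2 receptors did not share their extremes: the tMCAO library with the most C3ar1 had the least C5ar1. Means were 12.6 ± 7.60 CPM in celastrol, 17.5 ± 11.1 CPM in tMCAO and 2.43 ± 1.02 CPM in sham (SD, n = 3 each). The log2 fold change of tMCAO over sham was 2.85 ± 0.63 (95% interval 1.43 to 4.27; edgeR adjusted p = 0.131; DESeq2 adjusted p = 0.000124), and over 20 other settings the adjusted p ran between 0.000124 and 0.444. Because hemisphere RNA is a mixture of cells, a greater number of cells that carry a receptor and more receptor RNA per cell cannot be told apart, here or for any gene below.

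The relation between the 2 receptors differed between libraries. The FPKM ratio of C5ar1 to C3ar1 (FPKM, a read count scaled for transcript length and library size) was 0.930, 1.26 and 0.777 in celastrol libraries, 0.596, 0.742 and 0.129 in tMCAO libraries and 0.668, 0.278 and 0.128 in sham libraries. Each celastrol library was above each tMCAO and sham library. The ratio was chosen after the values had been seen and was not tested.

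C5ar2 encodes another C5a receptor, one that does not couple to G proteins, and its gene lies 2589 bases from C5ar1 on the same strand. It had 0, 0 and 1 estimated counts in celastrol libraries, 2, 0 and 82 in tMCAO libraries and 0, 43 and 24 in sham libraries. Most of the tMCAO sum of 84 counts thus came from replicate 3, and a library of every group was at 0. The authors' estimates spread reads over overlapping transcripts, so a 0 may be a failed estimate, and no fold is given. The gene did not pass the filter on low values, and a difference between groups was not detectable (exact permutation p = 0.464, two-sided, all 6 occluded libraries against 3 sham libraries). In an edgeR fit without the filter, celastrol against tMCAO had an unadjusted p of 0.0329 and an adjusted p of 0.834.

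C3ar1 lies on mm10 chr6:122847138-122856161 (minus strand) and C5ar1 on chr7:16246743-16259540 (minus strand). Both promoter windows are printed because these are the genes farthest above sham. Each window is the RefSeq (GRCm38.p6) stretch from 250 bases before RefSeq's start of the gene to 50 bases after it, written 5′ to 3′ on the gene's strand, chr6:122856108-122856407 for C3ar1 and chr7:16259289-16259588 for C5ar1. RefSeq's start of C5ar1 lies inside the gene span of the deposited table, so most of that window is within the span. Capitals mark a match to one of 5 motifs searched on both strands.
C3ar1: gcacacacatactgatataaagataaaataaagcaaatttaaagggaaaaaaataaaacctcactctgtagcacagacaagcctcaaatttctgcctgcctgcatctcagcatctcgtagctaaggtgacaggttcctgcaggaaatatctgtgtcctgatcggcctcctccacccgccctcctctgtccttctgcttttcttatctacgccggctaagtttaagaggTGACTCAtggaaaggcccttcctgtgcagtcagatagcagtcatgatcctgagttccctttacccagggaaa
C5ar1: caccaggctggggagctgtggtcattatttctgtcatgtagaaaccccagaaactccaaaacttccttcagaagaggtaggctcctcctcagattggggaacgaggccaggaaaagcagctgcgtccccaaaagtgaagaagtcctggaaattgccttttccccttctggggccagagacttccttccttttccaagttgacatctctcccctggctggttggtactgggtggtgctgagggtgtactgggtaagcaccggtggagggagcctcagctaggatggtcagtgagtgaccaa
The motifs were GAGGAAG (the core bound by PU.1 and other ETS factors), the kappaB motif, TTGCNNAA (C/EBP), TGANTCA (AP-1) and TTCNNNGAA (STAT). They occur in 13.6%, 1.47%, 10.8%, 7.81% and 8.30% of 32851 promoter windows of this length, in that order. The C3ar1 window holds 1 match, the AP-1 motif TGACTCA that begins at position -22 from RefSeq's start. The C5ar1 window holds none of the 5, which says only that these letters are not in it.

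**Figure D2:**
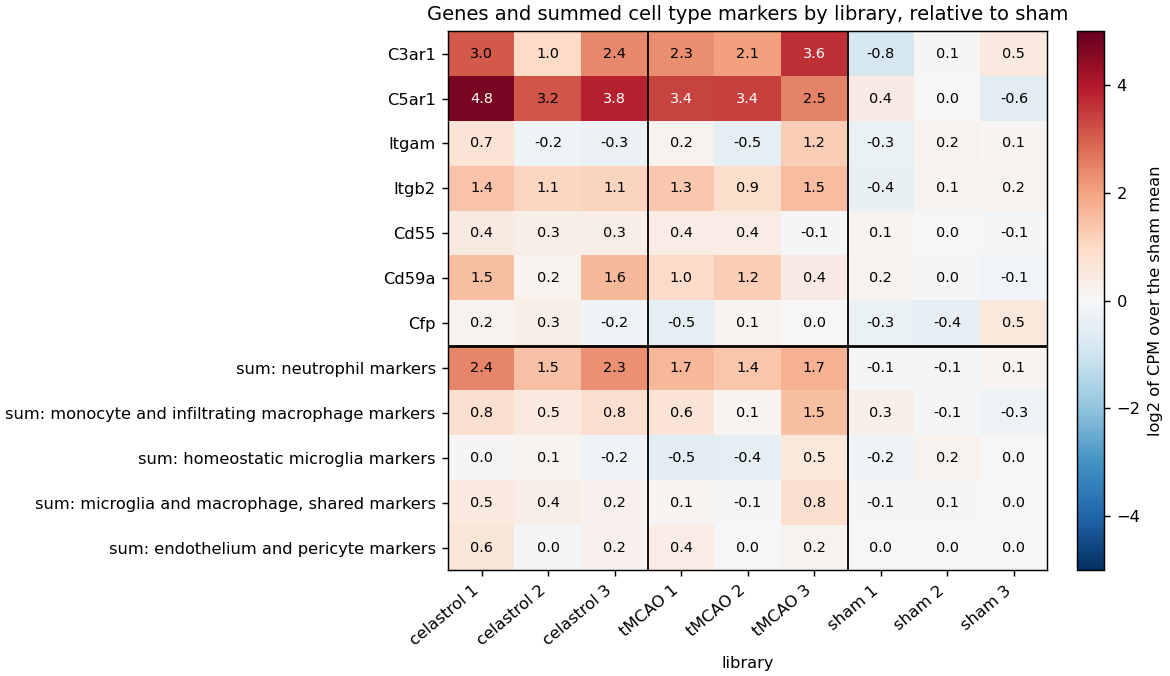
Log2 of CPM over the sham mean for the 7 tested genes (upper rows) and for the summed CPM of 5 cell type marker lists (lower rows), 1 column per library, celastrol and tMCAO before sham. The C5ar1 and C3ar1 rows and the neutrophil row were above the sham mean in all 6 occluded libraries, and the homeostatic microglia row was between -0.53 and 0.54.

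Markers of blood-borne and resident myeloid cells moved with these receptors in part. The 14 neutrophil markers summed to 50.7, 26.0 and 45.7 CPM in celastrol libraries, 29.5, 24.5 and 31.1 CPM in tMCAO libraries and 9.02, 9.04 and 10.0 CPM in sham libraries. Ly6g, Retnlg and Cxcr2 were at 0 in all sham libraries, and Elane was at 0 in all 9 libraries. Celastrol replicate 1 was highest both for the neutrophil sum and for C5ar1. Among the tMCAO libraries, replicate 3 had the highest neutrophil sum and, at 2.34 CPM, the least C5ar1. Csf3r, a large part of the sham sum, averaged 6.65 CPM in celastrol, 7.87 CPM in tMCAO and 6.42 CPM in sham libraries.

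The 10 monocyte and infiltrating macrophage markers summed to 185, 146 and 179 CPM in celastrol, 160, 110 and 295 CPM in tMCAO and 127, 95.8 and 86.4 CPM in sham libraries, with Plac8 and F10 at 0 in sham. Fn1 and Vcan made up most of the sham sum, so the sum says little about the other markers. Fn1 averaged 116 CPM in celastrol, 103 CPM in tMCAO and 75.1 CPM in sham libraries, and Vcan 29.1, 30.5 and 21.8 CPM. Of the 6 tested markers, 6 had a positive fold change for all occluded over sham (50.3% of all genes). DESeq2 called 3 of them higher (3.51% of all genes). The 12 homeostatic microglia markers summed to 282, 298 and 240 CPM in celastrol, 189, 200 and 396 CPM in tMCAO and 236, 305 and 277 CPM in sham libraries, and none of them was at 0 in sham. tMCAO replicate 3 was the highest library for both sums, as it was for C3ar1, Itgam, Itgax and C5ar2. The 10 markers shared by microglia and macrophages summed to 254 to 310 CPM in celastrol, 202 to 393 CPM in tMCAO and 202 to 230 CPM in sham libraries. The part of these cells in the results for the receptors was not tested.

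Among the integrin subunits, the shared chain Itgb2 stood above sham and Itgam did not. Itgb2, at mm10 chr10:77530252-77565686 (plus strand), had 16.4, 12.7 and 13.2 CPM in celastrol libraries, 15.4, 11.1 and 17.5 CPM in tMCAO libraries and 4.72, 6.59 and 6.90 CPM in sham libraries. The 6 occluded libraries lay within a narrow band above all sham libraries, and the celastrol and tMCAO ranges overlapped almost fully. Means were 14.1 ± 2.00 CPM in celastrol, 14.7 ± 3.27 CPM in tMCAO and 6.07 ± 1.18 CPM in sham (SD, n = 3 each). The log2 fold change of tMCAO over sham was 1.27 ± 0.23 (95% interval 0.76 to 1.79; edgeR adjusted p = 0.1; DESeq2 adjusted p = 5.98e-05; 5.98e-05 to 0.368 over 20 other settings). For all 6 occluded libraries against sham it was 1.24 ± 0.21, a 2.37-fold difference (edgeR adjusted p = 0.0769; DESeq2 adjusted p = 2.04e-06).

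Itgam had 33.6, 18.2 and 17.0 CPM in celastrol libraries, 23.6, 15.2 and 48.8 CPM in tMCAO libraries and 16.9, 23.4 and 22.6 CPM in sham libraries. The groups overlapped, and 1 tMCAO library, replicate 3, carried most of the tMCAO group's difference from sham. The log2 fold change of tMCAO over sham was 0.48 ± 0.42 (95% interval -0.47 to 1.43; edgeR adjusted p = 0.627), and without tMCAO replicate 3 it was -0.11. The level of Itgam is uncertain, since the table also holds Gm49368, a gene on the same strand at chr7:128062683-128128160 that overlaps Itgam and shares 66.3% of the distinct 50-base words of its transcripts. Gm49368 took 103, 0 and 253 estimated counts in celastrol, 711, 10 and 1 in tMCAO and 0, 0 and 0 in sham libraries. Adding both genes, a step chosen after the data were seen, gave 35.0, 18.2 and 20.3 CPM in celastrol, 33.4, 15.4 and 48.8 CPM in tMCAO and 16.9, 23.4 and 22.6 CPM in sham libraries. The groups still overlapped, and the log2 fold change of tMCAO over sham was 0.63 ± 0.40 (edgeR adjusted p = 0.492).

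The FPKM ratio of Itgb2 to Itgam set the shared chain against its partner in CR3. It was 0.803, 1.15 and 1.28 in celastrol libraries, 1.07, 1.2 and 0.591 in tMCAO libraries and 0.460, 0.464 and 0.502 in sham libraries. All 6 occluded libraries were above the 3 sham libraries, which lay close together. The ratio used Itgam without Gm49368, which took 711 estimated counts in tMCAO replicate 1, 253 in celastrol replicate 3, 103 in celastrol replicate 1 and 0 in every sham library. Any of these counts that belong to Itgam would lower the ratio in occluded libraries only. A ratio with both genes was not taken. This ratio too was chosen after the values had been seen and has no test.

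**Figure D3:**
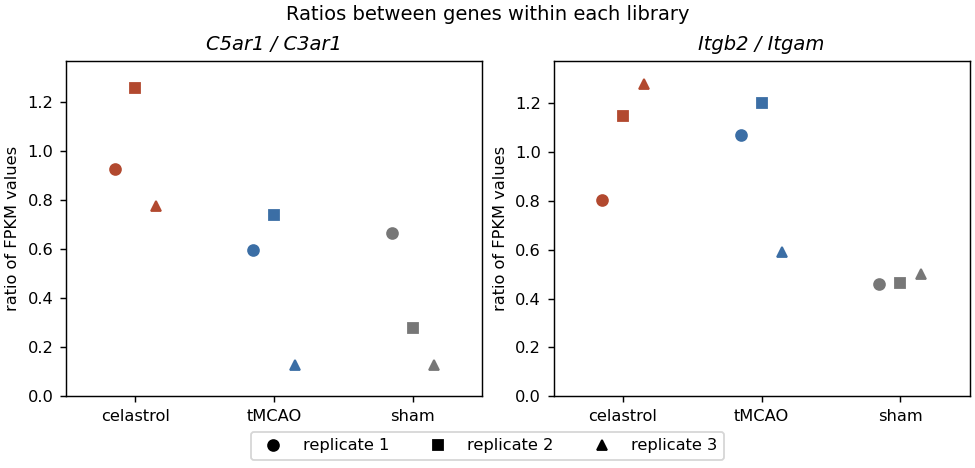
Ratio of FPKM values of C5ar1 to C3ar1 (left) and of Itgb2 to Itgam (right) in every library, on linear axes from 0, with celastrol, tMCAO and sham from left to right and 1 symbol per replicate. The sham libraries lay at 0.460 to 0.502 for Itgb2 over Itgam, below all 6 occluded libraries, and tMCAO replicate 3 was the lowest occluded library in both panels. Itgam was taken without the overlapping gene Gm49368, which had estimated counts in occluded libraries only.

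Itgax, a subunit prominent on dendritic cells and on activated microglia, was close to the limit of detection. It had 93, 0 and 67 estimated counts in celastrol libraries, 90, 24 and 168 in tMCAO libraries and 0, 16 and 4 in sham libraries. Of the 6 occluded libraries, 5 were above every sham library, and celastrol replicate 2 was at 0. The levels were 1.29, 0 and 0.884 CPM in celastrol, 1.23, 0.332 and 2.60 CPM in tMCAO and 0, 0.270 and 0.0692 CPM in sham libraries. Itgax did not pass the filter, and an exact two-sided permutation test of all occluded against sham libraries gave p = 0.119, with p = 0.0179 without celastrol replicate 2. An edgeR fit without the filter gave an adjusted p of 0.516 for tMCAO against sham (unadjusted p = 0.043). The 8 dendritic cell markers summed to 37.2 to 60.2 CPM in celastrol, 33.7 to 53.1 CPM in tMCAO and 36.7 to 41.3 CPM in sham libraries. Most of each sum came from Flt3, Zbtb46 and Cd24a, at 11.1, 16.1 and 10.9 CPM on average in sham libraries. The other markers on this list did not pass the filter, at no more than 0.475 CPM on average in any group, so the sum is little guide to dendritic cells.

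Itgam and Itgax are neighbours on the plus strand of mm10 chromosome 7, at chr7:128062640-128118491 and chr7:128129547-128150657. Their windows are shown as a pair because the genes sit side by side and encode partners of the same chain, with the same capitals, build and extent as above, at chr7:128062390-128062689 for Itgam and chr7:128129300-128129599 for Itgax.
Itgam: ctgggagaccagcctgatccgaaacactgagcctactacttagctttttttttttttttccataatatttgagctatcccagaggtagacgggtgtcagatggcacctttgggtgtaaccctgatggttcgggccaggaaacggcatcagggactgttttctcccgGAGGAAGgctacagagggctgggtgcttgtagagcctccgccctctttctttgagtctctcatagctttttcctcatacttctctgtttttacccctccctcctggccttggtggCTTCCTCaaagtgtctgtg
Itgax: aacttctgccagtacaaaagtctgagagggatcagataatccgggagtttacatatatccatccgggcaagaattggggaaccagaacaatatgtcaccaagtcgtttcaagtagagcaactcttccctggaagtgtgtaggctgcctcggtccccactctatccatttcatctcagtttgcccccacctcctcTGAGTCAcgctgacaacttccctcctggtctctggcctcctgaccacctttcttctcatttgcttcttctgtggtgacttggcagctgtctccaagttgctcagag
The Itgam window holds GAGGAAG at position -84 and the same motif on the reverse strand (CTTCCTC) at position 32. The Itgax window holds the AP-1 motif as TGAGTCA at position -56, which the C3ar1 window holds as TGACTCA. RefSeq windows were matched for 8 of the 9 genes, with Itgb2 unmatched. Of the rest, the 2 windows of C5ar2 hold 2 matches to TTGCNNAA and 1 to GAGGAAG, while the Cd55, Cd59a and Cfp windows hold none.

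The 2 membrane regulators differed in how far they stood from sham. Cd59a, at mm10 chr2:104095801-104115354 (plus strand), had 10.99, 4.40 and 11.96 CPM in celastrol libraries, 7.68, 9.09 and 5.18 CPM in tMCAO libraries and 4.38, 3.78 and 3.55 CPM in sham libraries. All occluded libraries were above all sham libraries, but celastrol replicate 2 exceeded the highest sham library only slightly. Means were 9.12 ± 4.11 CPM in celastrol, 7.32 ± 1.98 CPM in tMCAO and 3.90 ± 0.431 CPM in sham (SD, n = 3 each). Its log2 fold change was 0.91 ± 0.37 for tMCAO over sham (95% interval 0.06 to 1.75; edgeR adjusted p = 0.316; DESeq2 adjusted p = 0.186) and 1.06 ± 0.34 for all occluded over sham (edgeR adjusted p = 0.233; DESeq2 adjusted p = 0.0404). Over 20 other settings, the adjusted p for all occluded over sham ran between 0.0404 and 0.591.

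Cd55, at mm10 chr1:130439027-130462744 (minus strand), varied least of the 7 tested genes over the libraries. It had 7.30, 6.55 and 6.78 CPM in celastrol libraries, 7.01, 6.88 and 5.00 CPM in tMCAO libraries and 5.86, 5.31 and 4.98 CPM in sham libraries. Each celastrol library was above each sham library, by a small margin, and tMCAO replicate 3 lay within the sham range. Its log2 fold change was 0.35 ± 0.19 for celastrol over sham (95% interval -0.09 to 0.79; edgeR adjusted p = 0.677) and 0.23 ± 0.19 for tMCAO over sham (95% interval -0.21 to 0.67; edgeR adjusted p = 0.619). Cd55 shares 9.12% of its 50-base words, mainly with its neighbour Cd55b, which held 0 to 10 estimated counts per library, and overlaps the antisense gene Gm16083, which held 4 to 45.

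Cfp, the only soluble protein among these genes, did not separate the groups. The gene, at mm10 chrX:20925454-20931555 (minus strand), had 9.74, 10.5 and 7.56 CPM in celastrol libraries, 6.15, 9.40 and 8.77 CPM in tMCAO libraries and 6.89, 6.56 and 12.4 CPM in sham libraries. The highest library was a sham one, replicate 3, and the 3 ranges overlapped. The log2 fold change was -0.09 ± 0.29 for tMCAO over sham (95% interval -0.75 to 0.57; edgeR adjusted p = 0.914) and 0.10 ± 0.29 for celastrol over sham (edgeR adjusted p = 0.945), and the sign of the first turned under 4 other scalings or scales.

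**Figure D4:**
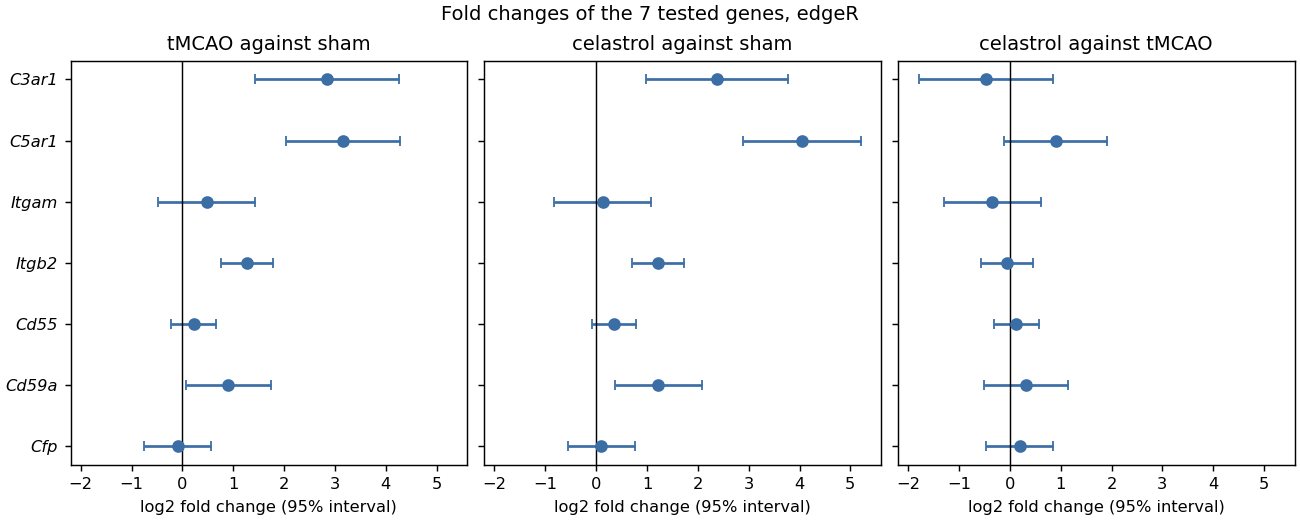
Log2 fold change of the 7 tested genes with the 95% interval from edgeR, for tMCAO against sham, celastrol against sham and celastrol against tMCAO. In the comparison with sham, the intervals of C3ar1, C5ar1, Itgb2 and Cd59a lay above 0 for both occluded groups, and in celastrol against tMCAO all 7 intervals included 0.

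Celastrol libraries stood above sham for C5ar1, C3ar1, Itgb2 and Cd59a, with C5ar1 farthest. Both comparisons with sham use the same 3 sham libraries. The log2 fold change of celastrol over sham was 4.05 ± 0.51 for C5ar1 (95% interval 2.90 to 5.21; edgeR adjusted p = 0.0638; rank 7 by p of all genes), and 2.38 ± 0.61 for C3ar1 (95% interval 0.98 to 3.77; edgeR adjusted p = 0.291). It was 1.22 ± 0.23 for Itgb2 (95% interval 0.70 to 1.73; edgeR adjusted p = 0.146) and 1.22 ± 0.37 for Cd59a (95% interval 0.37 to 2.07; edgeR adjusted p = 0.385). For Itgam it was 0.13 ± 0.42 (95% interval -0.82 to 1.08), and celastrol replicate 1 lay above the sham range.

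None of the 9 genes passed edgeR's adjusted threshold in celastrol against sham, where 0.00589% of all genes were called higher. At an unadjusted edgeR p under 0.05, 4 genes (C3ar1, C5ar1, Itgb2 and Cd59a) were higher, against 5.69% of all genes. DESeq2 called C3ar1, C5ar1 and Itgb2 higher (adjusted p = 0.00412, 4.23e-13 and 0.000216), 3 of the 7 tested against 1.85% of all genes tested. As above, C3ar1 and C5ar1 passed the filter only through the occluded libraries, which bears on the counts of this comparison. Every celastrol library was above every sham library for 5 of the genes, those 4 and Cd55, against 7.89% of all genes. Without celastrol replicate 2, C5ar1 passed in edgeR (log2 fold change 4.36, adjusted p = 0.0253).

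With celastrol and tMCAO libraries as 1 group against sham, edgeR called 0 of the 9 genes at an adjusted p under 0.05, and 0.00589% of all genes higher. The unadjusted edgeR p was under 0.05 for 4 genes, all higher, against 8% of all genes, and DESeq2 called the same 4, C3ar1, C5ar1, Itgb2 and Cd59a, against 3.51%. All 6 occluded libraries were above all 3 sham libraries for these 4, against 4.2% of all genes. Since C3ar1 and C5ar1 passed the filter only through the occluded libraries, the same limit bears on these counts. The exact two-sided permutation test over the 84 splits of 6 against 3 libraries gave p = 0.0119 for C3ar1, C5ar1 and Itgb2, the smallest it can give, and p = 0.0357 for Cd59a. The same exact test gave p = 0.0714 for Cd55, 0.631 for Itgam and 0.81 for Cfp, all of these unadjusted over 9 tests. That of Cd59a was 0.0536 without tMCAO replicate 2 and 0.0714 without any 1 sham library, and that of Cd55 was 0.0179 without tMCAO replicate 3, by the same exact test. Without celastrol replicate 2, edgeR called 3 genes, C5ar1 (adjusted p = 0.0214), Itgb2 (0.0458) and C3ar1 (0.0489).

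Celastrol against tMCAO asks what the drug did after occlusion, and no gene of the 9 separated these groups. No gene had every celastrol library above every tMCAO library, which 3.73% of all genes had, nor every one below. edgeR called 0 of the 9 at an adjusted p under 0.05 (0% of all genes higher) and 0 at an unadjusted p under 0.05 (2.25% of all genes higher) among the 7 tested, and DESeq2 called 0 (0.0707% of all genes higher). The median log2 fold change over the 7 tested genes was 0.13, beside -0.004 over all genes. Among the 7 tested genes the largest difference was that of C5ar1, at 0.90 ± 0.45 (95% interval -0.11 to 1.92; edgeR adjusted p = 0.976), with 2 of 3 celastrol libraries above every tMCAO library.

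The other intervals show the precision that 3 libraries a group gave. The 95% interval was -1.79 to 0.84 for C3ar1 and -1.30 to 0.60 for Itgam, so a 2-fold lower level in celastrol lies within both. It was narrower for Itgb2 (-0.56 to 0.45), Cd55 (-0.31 to 0.57) and Cfp (-0.47 to 0.86), and -0.52 to 1.15 for Cd59a. The estimates for C3ar1, at -0.47, and Itgam, at -0.35, turned to 0.19 and 0.24 without tMCAO replicate 3. With 3 libraries against 3, an exact permutation test cannot go below p = 0.10 and was not run.

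Per unit of length, the genes took different orders in the 3 groups. In celastrol libraries Cfp (4.71 ± 0.731 FPKM), Cd59a (4.51 ± 2.15 FPKM), Itgb2 (4.10 ± 0.783 FPKM) and Itgam (4.08 ± 1.84 FPKM) were highest and did not differ from their neighbours beyond the spread, followed by C3ar1 (2.65 ± 1.69 FPKM), C5ar1 (2.43 ± 1.45 FPKM) and Cd55 (1.25 ± 0.137 FPKM). In tMCAO libraries Itgam came first (5.34 ± 3.3 FPKM), then Itgb2 (4.39 ± 1.05 FPKM), Cfp (4.25 ± 0.918 FPKM), C3ar1 (3.74 ± 2.46 FPKM) and Cd59a (3.66 ± 0.934 FPKM), again within each other's spread, with C5ar1 (1.31 ± 0.400 FPKM) and Cd55 (1.17 ± 0.191 FPKM) below them. In sham libraries Cfp (4.23 ± 1.59 FPKM) and Itgam (3.54 ± 0.529 FPKM) were highest, then Cd59a (1.83 ± 0.242 FPKM) and Itgb2 (1.69 ± 0.297 FPKM), each pair within its spread. Below these in sham came Cd55 (0.940 ± 0.0990 FPKM), C3ar1 (0.477 ± 0.196 FPKM) and C5ar1 (0.135 ± 0.0494 FPKM). C5ar2 and Itgax were lowest in every group, at no more than 0.112 and 0.264 FPKM on average.

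Genes with the most similar profile were found among 13450 protein-coding genes of at least 1 CPM, by the root mean square difference of centred log2 CPM over the 9 libraries. C3ar1 was closest to Bcl2a1b (0.240), Tlr1 (0.322) and Slc15a3 (0.399), beside its own root mean square deviation of 1.39. C5ar1 was closest to S100a9 (0.455), Ch25h (0.562) and Selp (0.600), beside 1.74 of its own. Itgb2 was closest to Ptpn6 (0.154), Havcr2 (0.193) and Map4k1 (0.199), and Itgam to Fli1 (0.222), Il10rb (0.226) and Aldh3b1 (0.236). None of these genes was another of the complement receptors and regulators described here. Cd59a was closest to Mafk (0.192), Stxbp3 (0.200) and Rest (0.215), Cd55 to Rtkn (0.0716), Vmp1 (0.0839) and Cd164 (0.0937), and Cfp to Fndc8 (0.164), Fam229b (0.169) and Mettl18 (0.174). Within the 7 genes, Cd55 and Cfp were the closest pair (0.407) and C5ar1 and Cfp the most distant (1.77), while C3ar1 and C5ar1 differed by 1.10 and Itgam and Itgb2 by 0.587. The libraries share their groups and scaling, so these distances describe the 9 libraries and carry no test.

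The rest of the complement pathway, components as well as other receptors and regulators, stood above sham in part, as the genes described here did. Of 53 other complement genes in the lists, 30 passed the filter, and with all occluded libraries against sham edgeR called 0 at an adjusted p under 0.05, 13 higher and 1 lower at an unadjusted p under 0.05, and DESeq2 called 10 higher and 0 lower. Over all genes, 8% were higher at an unadjusted edgeR p under 0.05 and 3.51% were called higher by DESeq2. The median log2 fold change of the 30 was 0.19, beside 0.002 over all genes tested. A gene low in sham, such as C3, can pass the filter through its occluded libraries alone, which bears on these counts. C3, the source of C3a and of the fragments that CR3 and CR4 bind, averaged 3.98 ± 3.47 CPM in celastrol, 6.58 ± 3.00 CPM in tMCAO and 0.333 ± 0.305 CPM in sham libraries, with a log2 fold change of 3.92 ± 1.07 for all occluded over sham (edgeR adjusted p = 0.196). C4b, a classical pathway component that shares sequence with C4a, averaged 79.7 ± 33.4 CPM in celastrol, 92.3 ± 27.7 CPM in tMCAO and 18.1 ± 5.02 CPM in sham libraries (log2 fold change 2.25 ± 0.35; edgeR adjusted p = 0.0769). Of the 10 tested classical and lectin genes, 8 had a positive fold change (50.3% of all genes) and DESeq2 called 5 higher (3.51% of all genes), among them C1qb (0.98 ± 0.19) and the protease C1s1 (2.06 ± 0.47).

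The remaining complement genes were mixed, with some above sham and others close to it. Cfb, which forms the alternative convertase with C3b and that properdin stabilises, averaged 4.19 ± 0.237 CPM in celastrol, 2.70 ± 0.271 CPM in tMCAO and 2.06 ± 0.451 CPM in sham libraries. Its log2 fold change was 0.71 ± 0.21 for all occluded over sham (edgeR adjusted p = 0.219, DESeq2 adjusted p = 0.019). For celastrol over tMCAO it was 0.63 ± 0.24, and every celastrol library was above every tMCAO library (edgeR unadjusted p = 0.0268, adjusted p = 0.976). Of the terminal components, 1 of 7 passed the filter, C8g, at 0.23 ± 0.23. Hc, the gene of C5, did not pass, at 0.423 CPM in celastrol, 0.361 CPM in tMCAO and 0.279 CPM in sham libraries on average. Among the regulators, the fluid-phase inhibitor Serping1 was at 1.44 ± 0.38 (DESeq2 adjusted p = 0.0049) and Clu at 0.37 ± 0.14. Of the 14 tested, 5 had a positive fold change (50.3% of all genes) and DESeq2 called 2 higher (3.51% of all genes). Of 3 other receptors tested, Cd93 was at 1.75 ± 0.52 (DESeq2 adjusted p = 0.0079), C1qbp at 0.16 ± 0.10 and Cr1l at 0.07 ± 0.18. In celastrol against tMCAO, 3 of the 30 were higher at an unadjusted edgeR p under 0.05, against 2.25% of all genes. At an adjusted p under 0.05, edgeR and DESeq2 called 0, against 0% and 0.0707% of all genes called higher.

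The tested partners, ligands and activators of the beta-2 integrins had positive fold changes, but not all of them stood clear of sham as Itgb2 did. Of 10 genes in the list, 8 were tested, 8 had a positive log2 fold change for all occluded over sham (median 0.97), against 50.3% of all genes. A gene low in sham can pass the filter through its occluded libraries alone, which bears on these counts. Itgad averaged 0.391 CPM and Icam4 0.266 CPM in sham libraries. edgeR called 0 at an adjusted p under 0.05 and 4 higher at an unadjusted one (8% of all genes), and DESeq2 called 3 higher (3.51% of all genes). Icam1, an endothelial ligand of Itgb2 integrins, averaged 10.7 ± 3.71 CPM in celastrol, 13.9 ± 7.77 CPM in tMCAO and 1.81 ± 0.344 CPM in sham libraries (log2 fold change 2.75 ± 0.41; edgeR adjusted p = 0.0769). Fermt3, the kindlin that activates integrins in blood cells, was at 1.35 ± 0.37, and Icam4 at 1.93 ± 0.57. Itgad (2.41 ± 1.34), Icam2 (0.47 ± 0.38), Rap1a (0.20 ± 0.13) and Jam3 (0.004 ± 0.14) had an unadjusted edgeR p above 0.05. Itgal, the subunit that pairs with Itgb2 on lymphocytes and other leukocytes, did not pass the filter, at 1.69 ± 0.597 CPM in celastrol, 1.64 ± 0.350 CPM in tMCAO and 1.35 ± 0.826 CPM in sham libraries.

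**Figure D5:**
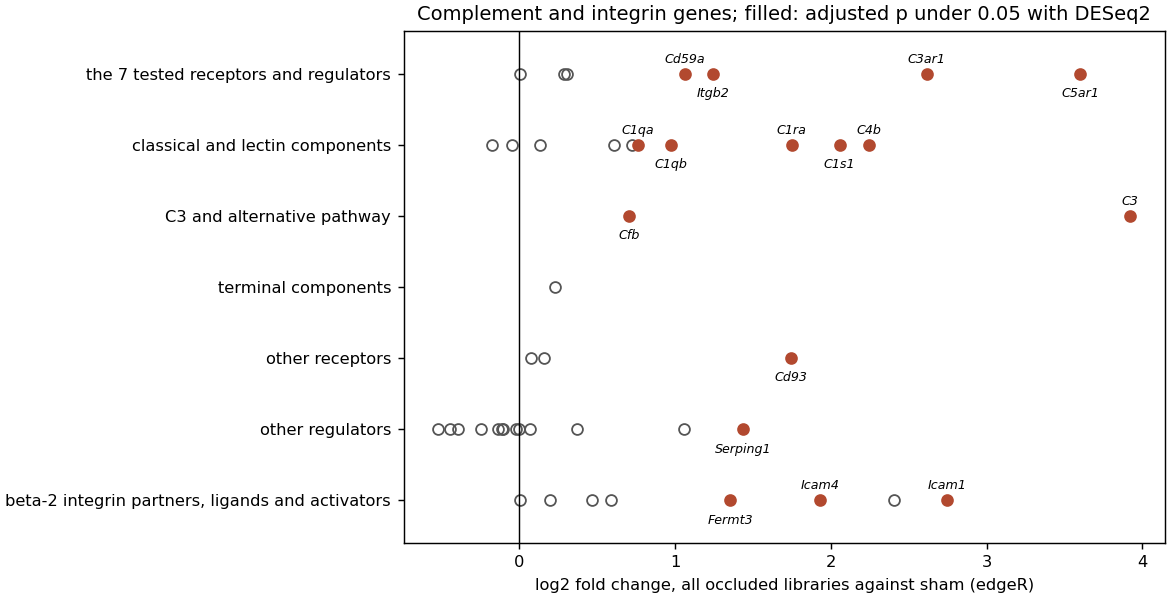
Log2 fold change from edgeR for all 6 occluded libraries against the 3 sham libraries, 1 point per gene shown, with a row for the 7 tested receptors and regulators and a row for each list of other complement and integrin genes; filled points have a DESeq2 adjusted p under 0.05. C5ar1 lay at 3.6 and C3ar1 at 2.61, with C3 at 3.92 and Icam1 at 2.75 in the other rows.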

How the data were processed

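Hemisphere total RNA was measured in 9 libraries, 3 per group by the labels' treatment field. The submitters' processing notes name the mm10 build, DESeq2, edgeR, StringTie 1.3.4d, HISAT2 2.0.4 and cutadapt 1.9. Settings and strand handling were not given in the sources used here. The authors deposited estimated counts per gene, already whole numbers, so that rounding left them as they were, and the authors' FPKM values, listed at 0.0001 where a count is 0. Rows without a gene name numbered 0.

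The 16982 genes that reached 0.5 FPKM in 3 or more of the 9 libraries entered 1 edgeR 4.0.16 quasi-likelihood fit with TMM scaling and 3 group means (R 4.3.3; two-sided; Benjamini-Hochberg over all genes tested; threshold 0.05). The spread was estimated over all groups at once (prior degrees of freedom 2.83, common dispersion 0.0963). Itgax and C5ar2, which failed the filter, took the exact test and an edgeR fit without the filter. CPM are counts scaled to the TMM-adjusted library size. An approximate SE was taken as the log2 fold change over the root of F. On simulated data of 16982 genes, 72 of 100 genes changed by a log2 of 2 and 89 of 100 changed by 3 were recovered, with 14 false calls. The simulated counts took each gene's spread from the fit and held changes in the tMCAO group only. These shares check the fit and are not its power in these libraries, where edgeR called 0 genes higher for tMCAO against sham. DESeq2 1.42.0, limma 3.58.1 on log2(FPKM + 0.5), other scalings and filters, a replicate block and leaving out each library were alternatives. Every pair of libraries differed by more than sampling noise (smallest chi-square over its degrees of freedom, 75.5).

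All 9 genes are named. Other genes were named as the 3 with the smallest p per list for all occluded against sham; C3's list had 2 tested genes. A gene that this rule names is not reported here. Itgal, Itgad, Icam2, Rap1a, Jam3, Hc, Csf3r, Fn1 and Vcan were added after their values were seen. Members and lists were chosen with earlier results of these data known. Shared sequence was checked on GENCODE M21 transcripts in words of 50 bases.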

Additional observations from a re-analysis of the deposited data

How the results depend on the processing

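The count of the 9 genes called by edgeR was 0 in each comparison. Under DESeq2 it was 3 for tMCAO against sham, 3 for celastrol against sham and 4 for all occluded against sham. With the replicate number as a block (replicate block) it was 1, 1 and 1 in that order, each time C5ar1 (adjusted p = 0.0453, 0.0439 and 0.0301), and when only the groups compared entered the fit it was 2 for all occluded against sham (C5ar1 and Itgb2, adjusted p = 0.0484 each). Same-numbered libraries did not stand out as pairs. Correlations of their deviations from the group means ran from -0.156 to 0.198, beside -0.264 to 0.227 for libraries of different numbers. With 3 libraries a group these correlations cannot exclude a shared batch. Leaving out 1 library gave 0 to 1, 0 to 1 and 0 to 3 calls, and each call came without celastrol replicate 2. For celastrol against tMCAO the count was 0 under all 20 alternatives. Over all genes, edgeR called 0, 0, 1 and 1 higher for tMCAO against sham, celastrol against tMCAO, celastrol against sham and all occluded against sham, DESeq2 called 557, 12, 314 and 596, the replicate block 48, 0, 21 and 59, and edgeR without celastrol replicate 2 called 80, 0, 41 and 169; the cause was not tested.

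The median log2 fold change of the tested genes for tMCAO against sham, 0.91, was 0.70 with limma on log2(FPKM + 1) and 0.80 to 1.10 when 1 library was left out. The sign of Cfp turned for tMCAO against sham with library totals only (0.012) and with limma at pseudocounts of 0.5, 0.1 and 1 (0.038, 0.044 and 0.032), and for all occluded against sham with RLE scaling and DESeq2 (-0.001 each). When 1 library was left out, the log2 fold change of Cfp ran from -0.25 to 0.27 for tMCAO against sham, from -0.059 to 0.464 for celastrol against sham and from -0.16 to 0.37 for all occluded against sham. That of Itgam ran from -0.11 to 0.80 for tMCAO against sham, from -0.74 to 0.24 for celastrol against tMCAO and from -0.26 to 0.30 for celastrol against sham. For celastrol against tMCAO, C3ar1 ran from -0.98 to 0.19, Itgb2 from -0.231 to 0.094 and Cd55 from -0.01 to 0.21. The exact permutation p for all occluded against sham, again with 1 library left out, ran from 0.375 to 1.0 for Itgam and from 0.179 to 0.982 for Cfp. It was at most 0.0714 for Cd59a, and for Cd55 it was 0.0179 without tMCAO replicate 3 and 0.0476 with library totals only. C3ar1, C5ar1, Itgb2 and Cd59a kept a positive fold change against sham under all alternatives run.

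With 3 libraries a group, the C3ar1 and Itgam differences between celastrol and tMCAO had intervals wide enough to hold a 2-fold lower level. Itgax and C5ar2 had at most 168 counts in a library, and their alternatives were confined to the exact test and the fit without a filter.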
